A study of Rattus norvegicus with 288 samples.

Results

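Interferon response genes are the genes that cells switch on when interferons bind their receptors. A list of 39 such genes was followed through heart, kidney and liver of rats given oxaliplatin, sunitinib or sorafenib. The list was chosen with earlier results of these data known. Of the 39, 37 had a probe set that the platform annotation ties to 1 gene symbol, and Xaf1 and Gbp5 were not analysed here. Each gene was read from its brightest probe set in the tissue. With dim genes left out, the test held 36 members of 11316 genes in heart, 37 of 12309 in kidney and 37 of 11618 in liver; Dhx58 was the member not tested in heart.

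The animals were 96 male Sprague-Dawley rats, 8 weeks old, and each tissue of each rat was hybridised to 1 Affymetrix rat genome array, which gave 288 arrays. All rats carried a femoral vein cannula and received a 30 min infusion into it, either oxaliplatin at 15 mg/kg, a platinum drug that binds DNA, or its vehicle D5W, a dextrose solution. An oral dose followed, which was sunitinib at 5 mg/kg, its vehicle water, sorafenib at 25 mg/kg, or its vehicle F68, made of propylene glycol, PEG400 and Pluronic F68. Sunitinib and sorafenib are inhibitors of receptor kinases. The 2 infusions and 4 oral doses formed 8 treatments, sampled at 1, 6 and 24 h with 4 rats in each of 24 groups per tissue. Every rat was given 1 infusion and 1 oral dose, and all were male. Water and sunitinib rats were dosed on one day and F68 and sorafenib rats on a later day, so F68 and dosing day cannot be told apart.

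Values are deposited log2 expression values, on which a difference of 1 is a change by a factor of 2. The median value of an array lay between 6.63 and 6.69 in heart, between 7.32 and 7.81 in kidney and between 6.66 and 6.78 in liver. The tissue markers matched the labels on 286 arrays. One array labelled liver and one labelled kidney, both of the group given D5W then sorafenib at 24 h, had the other organ's markers (mean log2 12.3 for kidney and 6.31 for liver markers on the liver array; 6.65 and 14.1 on the kidney array). Both were left out, so that this group had 3 arrays in liver and in kidney. Array names hold a slot code such as 02D, and every slot of the 24 h set, and of the 1 and 6 h set, was found once in each tissue, in 1 group. The labels do not say that a slot is a rat. One kidney array, of the group given oxaliplatin then sunitinib at 1 h, had a low hybridisation control signal (BioB, 4.69) and was kept.

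As background, type I interferons act through receptors with bound kinases, and signal to STAT2 and IRF9, which act in a complex that binds the interferon response element. Interferon gamma signals to the gamma-activated site and through IRF1, which is itself induced. The members thus include genes led by type I interferon, such as Mx1, Isg15 and Rsad2, and genes led more by interferon gamma, such as Cxcl9, Gbp2, Ubd and the immunoproteasome subunits. In liver and kidney as in heart, resident macrophages and the lining cells of vessels are among the cells that respond.

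Promoter sequences are shown for 7 members that the results below return to, because they carry the response elements by which interferon factors recognise such genes. They come from RefSeq (assembly GRCr8), in which 34 of the 39 listed members have an entry, and each is the 250 bases before the start of the gene, 5′ to 3′ on the gene's strand. Capitals mark matches, on either strand, to GAAANNGAA, the core of the interferon response element, or to TTCNNNGAA, the gamma-activated site, where N is any base. Irf7, the transcription factor that amplifies type I interferon (chr1:205800024-205800273, minus strand), had 1 response element, 68 bases before the start. Ifit3, an antiviral protein that binds other IFIT proteins (chr1:241527076-241527325, plus strand), had 2, at 43 and 24 bases. Oas1a, which makes the oligoadenylates that activate RNase L (chr12:41330216-41330465, plus strand), had 2, at 41 and 35 bases, and a gamma-activated site at 199 bases. Psmb10, an immunoproteasome subunit (chr19:50743293-50743542, minus strand), had 3, at 73, 67 and 17 bases. Bst2, or tetherin, which holds budding virus at the cell surface (chr16:18254968-18255217, minus strand), had 2, at 131 and 125 bases, overlapped by a gamma-activated site at 137 bases. Rsad2, or viperin, an antiviral enzyme (chr6:48788121-48788370, minus strand), had 1, at 146 bases. Irf1 (chr10:38417685-38417934, plus strand) had none of these and a gamma-activated site at 142 bases.
Irf7: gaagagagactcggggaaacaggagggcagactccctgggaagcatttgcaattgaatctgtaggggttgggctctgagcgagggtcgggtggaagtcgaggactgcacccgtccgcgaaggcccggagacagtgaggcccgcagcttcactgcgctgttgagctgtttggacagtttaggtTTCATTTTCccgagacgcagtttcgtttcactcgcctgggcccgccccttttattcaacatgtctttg
Ifit3: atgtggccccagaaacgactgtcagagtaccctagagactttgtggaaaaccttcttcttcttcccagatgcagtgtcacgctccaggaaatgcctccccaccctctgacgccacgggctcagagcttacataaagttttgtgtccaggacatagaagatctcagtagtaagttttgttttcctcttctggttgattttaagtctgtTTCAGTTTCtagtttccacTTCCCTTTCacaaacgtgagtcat
Oas1a: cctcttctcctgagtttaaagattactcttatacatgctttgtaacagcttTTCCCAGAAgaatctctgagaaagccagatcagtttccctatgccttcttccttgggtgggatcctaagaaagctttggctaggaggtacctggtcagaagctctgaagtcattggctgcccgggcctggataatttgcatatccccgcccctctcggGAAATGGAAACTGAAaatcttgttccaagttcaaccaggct
Psmb10: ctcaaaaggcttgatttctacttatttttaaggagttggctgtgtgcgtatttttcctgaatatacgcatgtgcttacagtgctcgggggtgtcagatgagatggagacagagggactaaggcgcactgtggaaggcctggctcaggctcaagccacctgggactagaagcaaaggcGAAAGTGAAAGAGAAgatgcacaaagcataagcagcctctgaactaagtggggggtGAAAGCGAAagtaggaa
Bst2: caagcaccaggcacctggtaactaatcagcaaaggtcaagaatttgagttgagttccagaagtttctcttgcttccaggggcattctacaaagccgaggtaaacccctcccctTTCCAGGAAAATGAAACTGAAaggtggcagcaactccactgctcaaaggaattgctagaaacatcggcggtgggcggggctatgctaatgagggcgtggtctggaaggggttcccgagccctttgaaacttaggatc
Rsad2: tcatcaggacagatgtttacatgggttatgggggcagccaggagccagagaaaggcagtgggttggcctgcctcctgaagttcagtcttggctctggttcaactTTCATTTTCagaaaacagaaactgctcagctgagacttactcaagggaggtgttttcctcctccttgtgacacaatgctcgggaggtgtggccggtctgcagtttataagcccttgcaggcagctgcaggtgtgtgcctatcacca
Irf1: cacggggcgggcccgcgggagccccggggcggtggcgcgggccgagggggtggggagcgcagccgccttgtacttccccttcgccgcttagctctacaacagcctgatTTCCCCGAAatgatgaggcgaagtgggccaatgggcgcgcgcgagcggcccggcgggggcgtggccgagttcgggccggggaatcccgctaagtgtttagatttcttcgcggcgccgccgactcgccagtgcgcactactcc

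Over the 34 members, 20 (58.8%) held GAAANNGAA in this window, against 7.99% of 27457 genes with an entry of the same length. A gamma-activated site was found in 10 members (29.4%), against 7.52% of all genes, and both motifs in 4 (11.8%), against 0.903%. At least 2 response elements were found in 7 members and in 0.532% of all genes. Neither motif was found in this window for Ubd, Cxcl9, Psmb9, Mx1, Oasl, Dtx3l, Parp9 or Stat2, which says only that these letters were not there. A match is a description of the sequence and not a measured binding site.

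In vehicle rats (D5W then water or F68, 24 arrays a tissue over the 3 times), most members were highest in liver. Of the 36 members that passed the filter in all 3 tissues, 26 had their highest mean in liver, 5 in heart and 5 in kidney. Levels of 1 gene are set across tissues here on the log2 scale and rest on the authors' normalization, in which kidney arrays had the higher medians given above. The members highest in kidney led the next tissue by less than that distance: Mx1 was 7.84 in kidney and 7.83 in liver, Eif2ak2 7.97 and 7.91, Cxcl10 8.55 and 8.28, Socs1 7.95 and 7.57, and Lgals3bp 9.75 in kidney and 9.24 in heart. Ubd (FAT10), a ubiquitin-like protein that marks others for the proteasome, was 7.78 ± 0.80 in heart against 10.07 ± 0.59 in kidney and 12.26 ± 0.62 in liver (mean ± SD). Psmb8, a catalytic subunit of the immunoproteasome, was 9.39 ± 0.46 in heart against 9.66 ± 0.38 in kidney and 12.22 ± 0.36 in liver. These 2 genes of the degradation route were thus highest in liver by far more than their SD, and heart and kidney were closer to each other for Psmb8 than for Ubd. B2m, the light chain of MHC class I, differed less, at 13.83 ± 0.11 in heart against 14.17 ± 0.05 in kidney and 14.49 ± 0.04 in liver. Some antiviral genes had another order, and Rsad2 was 10.20 ± 0.39 in heart against 9.73 ± 0.34 in kidney and 9.28 ± 0.32 in liver. Isg15, the ubiquitin-like protein that is joined to others after interferon, was 9.44 ± 0.41 in heart against 9.31 ± 0.35 in kidney and 9.80 ± 0.39 in liver, so that its tissue means lay within 0.49 of each other.

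The members varied more between rats of one group than most genes did. The median of the members' SD within groups was 0.280 log2 in heart against 0.115 over all genes tested, 0.254 against 0.130 in kidney and 0.295 against 0.140 in liver. In heart 34 of 36 members, in kidney 35 of 37 and in liver 35 of 37 were above the median gene, and 26, 22 and 23 were among the tenth of genes with the largest spread. The widest spread was that of Mx1, a GTPase that blocks virus replication, in heart (0.713), and of Ubd in kidney (0.953) and liver (1.35). B2m had the smallest SD in every tissue, with 0.0850, 0.0493 and 0.0352, at levels near the top of the array's scale; whether its signal was saturated was not tested. A median of 50.4% of a member's variance in heart, 63.6% in kidney and 57.7% in liver lay within groups and not between treatments or times, against 44.4%, 54.7% and 45.3% over all genes tested.

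Within a tissue most members rose and fell together from rat to rat. Each array's deviation from its group mean was correlated between members, over 96 arrays in heart and 95 in kidney and liver, which share their normalization. The median Pearson r over pairs of members was 0.526 in heart (Spearman 0.375, 630 pairs), 0.512 in kidney (0.491, 666 pairs) and 0.410 in liver (0.365, 666 pairs). Without slots 02D and 03A, described below, the medians were 0.416, 0.475 and 0.362. In heart 36, in kidney 61 and in liver 51 pairs had an r below 0, and Socs1 (r with Isg15 0.108, -0.250 and -0.124) and Ubd (0.240, -0.036 and -0.056) followed Isg15 weakly or not at all. By the mean r over the 3 tissues, the members nearest to Isg15 were Mx2, a relative of Mx1 (r 0.959 in heart, 0.955 in kidney and 0.925 in liver), Irf7 (0.891, 0.920 and 0.919), Mx1 (0.897, 0.941 and 0.869) and Usp18, the protease that takes Isg15 off its targets (0.853, 0.936 and 0.884). By the same mean, nearest to Psmb9, another immunoproteasome subunit, were Psmb10 (0.882, 0.699 and 0.812), Psmb8 (0.747, 0.707 and 0.870) and Tap1, which with Tap2 carries peptides to MHC class I (0.844, 0.657 and 0.619). These are descriptions, with no test.

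For most members, arrays that share a slot stood high or low together across tissues. Over 95 slots, a member's deviation in one tissue was set against its deviation in another tissue of the same slot. The median r over members was 0.589 between heart and kidney, 0.591 between heart and liver and 0.507 between kidney and liver, where the medians over all genes were 0.0789, 0.0922 and 0.0945. An r over 0.5 was found for 26 of 36, 20 of 36 and 20 of 37 members, against 4.87%, 4.08% and 5.14% of all genes. The medians without slots 02D and 03A were 0.491, 0.483 and 0.461. For Isg15, r was 0.721, 0.878 and 0.795 and Spearman's rho 0.639, 0.789 and 0.668; each raw permutation p was 1e-05, the smallest that 100000 resamples can give, and 109 such correlations were computed. Without the 2 slots farthest from the median in heart, r between heart and liver was 0.814. The pattern was weak in all 3 pairs for Socs1, an inhibitor of cytokine receptor kinases (r -0.227, 0.081 and 0.070), and Cxcl11, a T cell chemokine (0.144, -0.078 and -0.120). It was also weak in single pairs, as for Irf8 between heart and kidney (0.114), Cxcl9 between heart and liver (0.287) and Cxcl10 between kidney and liver (0.147). Over all genes, an array correlated best with the array of its own slot, among those of the same group in the other tissue, in 89, 90 and 95 of 95 cases for heart and kidney, heart and liver, and kidney and liver.

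**Figure D1:**
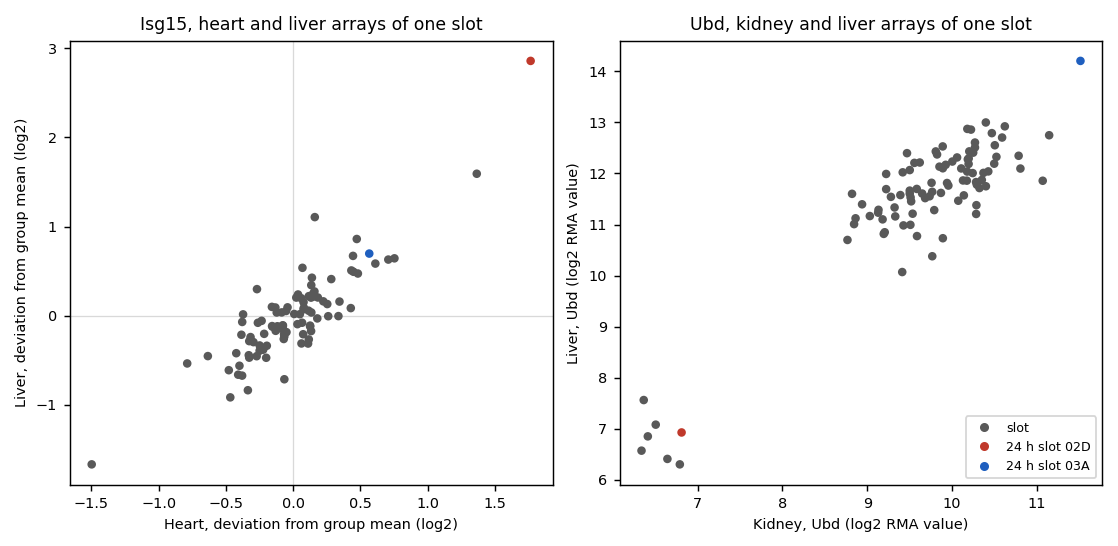
Each point is 1 slot. Left, the deviation of Isg15 from its group mean (log2) in heart on the x axis and in liver on the y axis; right, the log2 value of Ubd in kidney on the x axis and in liver on the y axis. Isg15 deviations rose together (r 0.878), and 7 slots were far below the rest for Ubd in both organs.

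One slot, 02D of the 24 h set, given oxaliplatin then sunitinib, stood out in all 3 tissues. The Isg15 values of the 4 arrays of that group were 9.16, 10.46, 10.59 and 12.42 in heart. In kidney Isg15 was 9.26, 9.51, 9.89 and 11.83. In liver Isg15 was 9.27, 10.22, 10.46 and 13.80. In each case the highest array was slot 02D and the other arrays of the group lay well below it. Mx1 was 6.97, 7.95, 8.07 and 11.84 in heart, with 02D again the highest. Of the members tested, 02D had the highest value of all arrays in 24 of 36 in heart, 21 of 37 in kidney and 20 of 37 in liver.

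On 02D 34 of 36 heart members, 34 of 37 kidney members and 34 of 37 liver members were above the mean of the other arrays of the group. Mx1, Mx2, Isg15, Irf7, Ifit3 and Usp18 were among the 10 members with the largest difference on 02D in each tissue. Against the mean of the other 3 arrays of its group, Mx1 was higher by 4.18 in heart, 2.80 in kidney and 2.61 in liver. Isg15 was higher by 2.35 in heart, 2.28 in kidney and 3.81 in liver, and Irf7 by 2.11 in heart, 2.003 in kidney and 2.30 in liver. Rsad2 was higher by 1.69 in heart, 1.34 in kidney and 3.32 in liver. More than 1 log2 above the others were 22 heart members, 17 kidney members and 17 liver members, against 0.813%, 0.357% and 0.585% of all genes tested. Ubd went the other way, with differences of -0.27 in heart, -2.75 in kidney and -4.18 in liver. The macrophage markers (10 tested in heart and liver, 9 in kidney; median difference 0.10, 0.13 and 0.05) were near the other arrays of the group. This is 1 slot, chosen after its values were seen, and it carries no test.

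**Figure D2:**
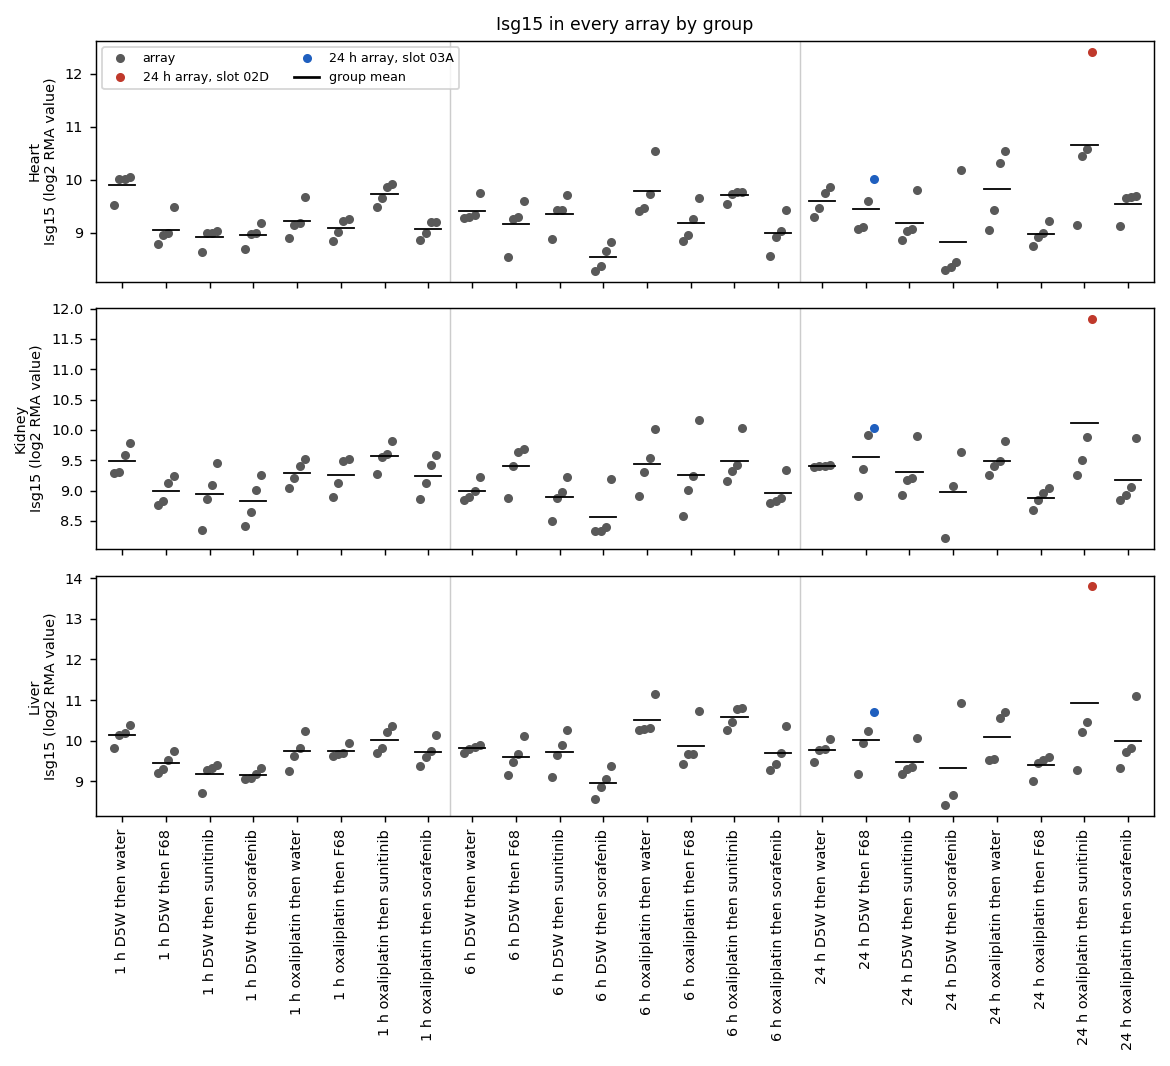
Isg15 (log2 value, y axis) on every array of heart, kidney and liver; the x axis holds the 24 groups, each point is 1 array and each bar a group mean. The 24 h slot 02D (red) was the highest Isg15 value in each tissue and slot 03A (blue) is marked for comparison.

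A second slot of the 24 h set, 03A, given D5W then F68, was also above the mean of the other arrays of its group for most members, 35 of 36 in heart, 35 of 37 in kidney and 33 of 37 in liver. Cxcl9, a T cell chemokine led by interferon gamma, was above the other 3 arrays of its group by 1.85 in heart, 1.28 in kidney and 2.47 in liver. Ubd was higher by 2.78 in heart, 1.37 in kidney and 2.25 in liver. Psmb9 was higher by 2.05 in heart, 1.21 in kidney and 1.21 in liver. Rsad2 differed by 0.21 in heart, -0.02 in kidney and 0.06 in liver, and Ifit2, an antiviral RNA-binding protein, by 0.14 in heart, -0.03 in kidney and 0.08 in liver. Tap2, Tapbp, which loads peptides onto MHC class I, and B2m had their highest value of all arrays on 03A in each of the 3 tissues. Over all members the median difference was 0.71, 0.36 and 0.38, and that of the macrophage markers 0.56, 0.31 and 0.17. Slot 03A belongs to a control group, and counts that moved without it are given below both ways.

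**Figure D3:**
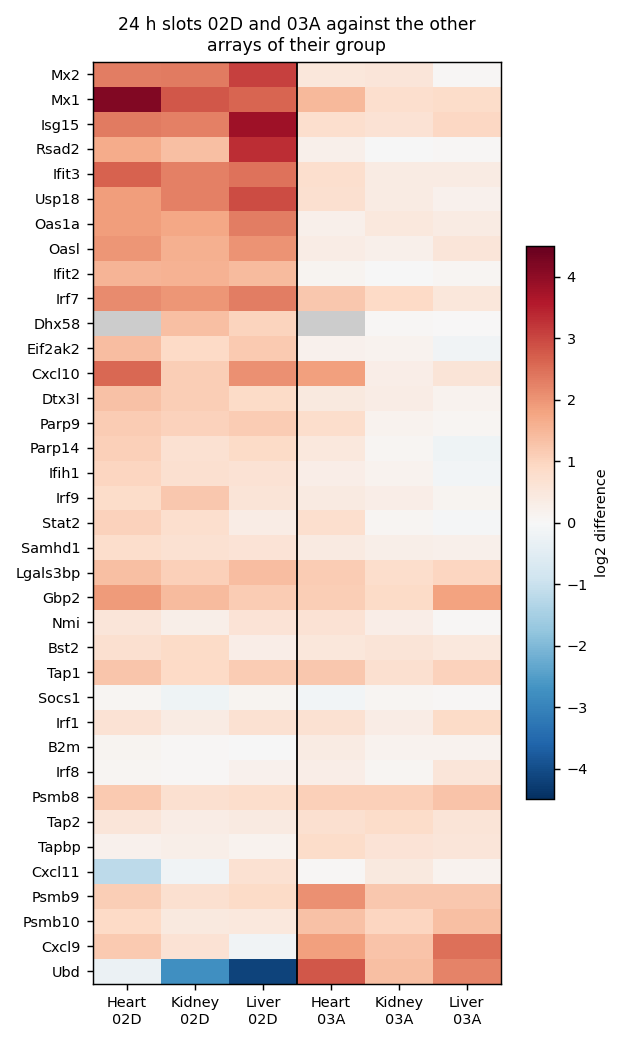
Log2 difference (colour) of slots 02D and 03A from the other arrays of their group in heart, kidney and liver, for the 37 members. Members are ordered by their mean difference on 02D minus that on 03A, largest at the top. Grey marks a member not tested. Most members were above the other arrays on both slots; on 02D the largest difference was that of Mx1 in heart and kidney and of Isg15 in liver, and Ubd was low on 02D and high on 03A.

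Ubd fell into 2 separate ranges. On 7 of 95 liver arrays it was at most 7.56, while the rest were at least 10.07, and in kidney the same 7 slots were at most 6.81 and the rest at least 8.77. They came from 5 groups: 02D above, a pair given oxaliplatin then sorafenib at 1 h, a pair given D5W then sunitinib at 6 h, and 1 each given oxaliplatin then F68 and oxaliplatin then sorafenib at 6 h. In heart, where Ubd was low on most arrays, these slots had 6.55 to 7.37. Among the other 88 slots kidney and liver Ubd had r 0.718 and rho 0.752.

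Sorafenib was compared with its vehicle F68 after D5W, and every member called was lower after sorafenib. In heart at 6 h, 11 of 36 members fell and 0 rose (30.6%). Of all genes tested 41.9% were called, 23.6% lower and 18.2% higher. The member median was -0.40 log2 against -0.03 over all genes tested. Bst2 was 12.23, 12.23, 12.30 and 12.43 in the F68 hearts. It was 10.80, 11.20, 11.35 and 11.52 in the sorafenib hearts, all below F68, and fell by 2.12-fold (-1.08 ± 0.13 log2 ± SE, adjusted p = 1.27e-10). Irf1 was 8.73, 9.001, 9.46 and 9.56 against 7.94, 8.50, 8.58 and 8.63, again without overlap (-0.77 ± 0.14, adjusted p = 7.40e-06).

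The 11 members came from several roles. Of the transcription factors, 2 of 5 fell, Irf1 and Irf9 (-0.40 ± 0.13), and of antiviral effectors 3 of 10, Bst2, Oas1a (-0.68 ± 0.25) and Oasl, an Oas1a relative (-0.57 ± 0.20). Of antigen processing genes 3 of 7 fell, Tap1 (-0.68 ± 0.20), Psmb8 (-0.61 ± 0.21) and Tapbp (-0.46 ± 0.11). Of regulators 2 of 9 fell, the secreted glycoprotein Lgals3bp (-0.68 ± 0.21) and the ADP-ribosyltransferase Parp14 (-0.44 ± 0.13), and of chemokines 1 of 3, Cxcl9 (-0.67 ± 0.26). Among 29 further interferon-induced genes, 11 fell and 1 rose; the GTPase Igtp (-0.73) and the membrane protein Ifitm3 (-0.62) were among those that fell. Of 10 macrophage markers 5 fell, and their mean level was 8.57 to 9.14 in F68 hearts and 8.24 to 8.44 in sorafenib hearts; its part in the members' fall was not tested. In whole tissue, fewer cells of a type and less RNA per cell cannot be told apart. The beta-actin 3′ minus 5′ signal, a sign of RNA quality, was 0.205 to 0.330 in the F68 hearts and 0.486 to 0.767 in the sorafenib hearts, without overlap. With it as a covariate 17 members were called. The covariate's slope comes from differences within groups, so that fit cannot settle what a shift of a whole group does.

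In heart at 24 h the 3 immunoproteasome subunits were among the members that fell. Here 6 of 36 members fell and 0 rose (16.7%, all genes 7.05%), and the member median was -0.33 log2 against -0.03 over all genes tested. Psmb9 was 9.51, 9.60, 10.41 and 11.89 in F68 hearts and 9.17, 9.19, 9.20 and 10.003 in sorafenib hearts, which overlapped (-0.96 ± 0.22, adjusted p = 0.00246). Psmb8 (-0.84 ± 0.21), Psmb10 (-0.72 ± 0.14), Lgals3bp (-0.63 ± 0.21), Bst2 (-0.47 ± 0.13) and B2m (-0.29 ± 0.06) also fell. Macrophage markers were 8.33 to 9.04 in F68 and 7.59 to 8.23 in sorafenib hearts, and 6 of 10 fell. Without slot 03A, the highest F68 array, 1 member was called, without F68 slot 03B 12, and without sorafenib slots 04F or 04E 3 or 14; in a fit of the 2 groups alone 0 were called. The beta-actin 3′ minus 5′ signal was 0.395 to 0.505 in F68 and 0.132 to 0.373 in sorafenib hearts, without overlap, and with it as a covariate Psmb10 and B2m were the 2 members called.

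In liver at 24 h the largest number of members fell of any comparison made here on the deposited scale. Quantile-normalized again within each tissue, 5 members fell there and 12 in heart at 6 h. On the deposited scale 19 of 37 liver members fell and 0 rose (51.4%), in a comparison that called 67.3% of all genes, 48.2% lower and 19.1% higher. The share of members that fell was thus near that of genes at large. The member median was -0.53 log2 against -0.24 over all genes tested. Cxcl9 was 9.43, 9.69, 10.45 and 12.33 in F68 livers and 7.67, 8.55 and 9.23 in the 3 sorafenib livers, all of which lay below F68, and was lower by 3.97-fold (-1.99 ± 0.39, adjusted p = 9.85e-06). Gbp2, a guanylate-binding protein that acts on intracellular pathogens, was 8.25, 8.30, 9.94 and 10.66 against 6.45, 6.74 and 9.03; the highest sorafenib liver lay within the F68 range (-1.88 ± 0.39, adjusted p = 2.35e-05). These were followed by Rsad2 (-0.92 ± 0.36), Psmb10 (-0.91 ± 0.23), Nmi, which binds STAT proteins (-0.87 ± 0.13), Psmb9 (-0.81 ± 0.22) and Tap2 (-0.80 ± 0.12).

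By role, 5 of 7 antigen processing genes fell in liver at 24 h, both RNA sensors (Dhx58, -0.76 ± 0.19, and Ifih1, -0.38 ± 0.14), 4 of 9 regulators, 3 of 10 antiviral effectors, 2 of 5 transcription factors, 2 of 3 chemokines and Gbp2. Of 31 further induced genes 19 fell and 1 rose, and the MHC class II genes RT1-Da (-1.36) and Cd74, their invariant chain (-0.98), were among those that fell. Of 6 further sensors of nucleic acids 3 fell, of the 2 constitutive proteasome subunits measured 1 fell and 1 rose, of 5 interferon and receptor genes 4 fell, and of 10 kinase and signalling genes 6 fell and 2 rose, Stat3 (1.10) and Irf2 (0.74). Of 10 macrophage markers 9 fell, with mean levels of 10.51 to 10.996 in F68 and 9.85 to 10.13 in the 3 sorafenib livers; whether this bears on the members was not tested. The beta-actin 3′ minus 5′ signal was 0.772 to 0.849 in F68 and 0.641 to 0.762 in the 3 sorafenib livers, without overlap. The paper describes every array labelled with this sorafenib group as differing from other livers in its distribution of values. It proposes that biology is the likely reason and asks for further quality assessment. Of all genes, the median difference moved from -0.24 to -0.04 when the liver arrays were quantile-normalized again. Cxcl9 (-1.71), Gbp2 (-1.85), Dhx58 (-0.81), Tap2 (-0.66) and Nmi (-0.50) fell and Socs1 rose (0.27) on that scale, and the other 14 members that fell were not called. The count moved to 7 in a fit of the 2 groups alone, to 12, 10 and 30 members without sorafenib slots 04G, 04F and 04E, and to 31 with the array that carries kidney markers kept as labelled, while Cxcl9, Nmi and Tap2 were called with any 1 array left out.

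In liver at 1 h 1 member fell and 0 rose, where 0.0689% of all genes were called. This was Cxcl10, another T cell chemokine, with 8.21, 9.61, 9.78 and 12.57 in F68 and 7.50, 7.65, 7.90 and 8.04 in sorafenib livers (-2.27 ± 0.42, 4.83-fold, adjusted p = 0.00547). The groups did not overlap, but 1 F68 array (slot 03C) lay far above the others and the call was lost without it, without sorafenib slot 04H and in a fit of the 2 groups alone. In the other 5 comparisons of sorafenib, heart at 1 h, liver at 6 h and kidney at each time, 0 members were called by limma. Of all gene tests 2.37% were called (12.2% in heart at 1 h), and 48 of 184 member tests had an unadjusted p under 0.05. Of these 48, 18 were in kidney and 16 in liver at 6 h. The member median there was -0.34 log2 in kidney and -0.41 in liver, where 0.0731% and 0.0344% of all genes were called. Members' medians were below 0 in all 9 comparisons of sorafenib with F68 after D5W, and those of all genes in 6. The sorafenib groups at each time were set against 1 F68 group. This was not particular to sorafenib. Members' medians were also below 0 in all 9 comparisons of sunitinib with water and all 9 of oxaliplatin with D5W. After oxaliplatin they were below 0 in 2 of 9 comparisons of sorafenib and 2 of 9 of sunitinib.

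**Figure D4:**
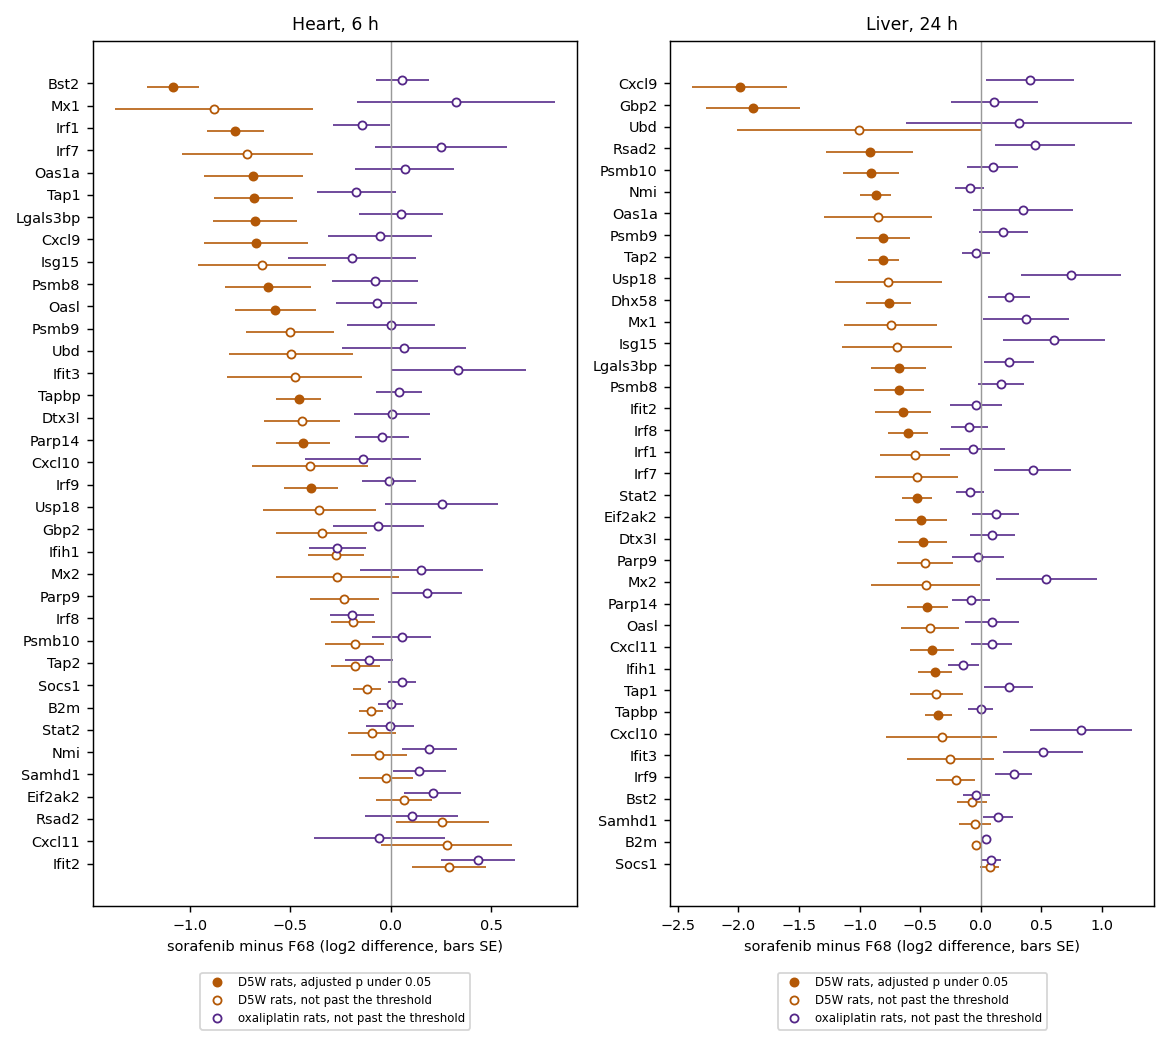
Difference between sorafenib and F68 rats (log2, x axis, bars are SE) for each member (y axis) in heart at 6 h and liver at 24 h. Orange points are rats given D5W, filled where the adjusted p was under 0.05, and purple points rats given oxaliplatin, where no member passed; Bst2 in heart and Cxcl9 and Gbp2 in liver lay farthest to the left among orange points.

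Sunitinib was compared with water after D5W. In heart at 1 h 7 of 36 members fell and 0 rose (19.4%), where 10.0% of all genes were called, and the member median was -0.41 log2 against -0.02 over all genes tested. Mx1 was 7.43, 7.89, 7.92 and 8.67 in water hearts and 6.10, 6.48, 6.72 and 6.77 in sunitinib hearts, with no overlap (-1.46 ± 0.49, adjusted p = 0.0435). Isg15 was 9.54, 10.02, 10.02 and 10.06 against 8.64, 8.99, 8.99 and 9.03, also without overlap (-0.99 ± 0.32, adjusted p = 0.0329). Psmb8 was 9.60, 9.87, 9.93 and 10.002 against 9.01, 9.05, 9.08 and 9.21 (-0.77 ± 0.21, adjusted p = 0.0137). Every sunitinib heart was thus below every water heart for these 3 genes, and Ubd (-1.05 ± 0.31), Bst2 (-0.45 ± 0.13), Nmi (-0.44 ± 0.14) and Irf9 (-0.43 ± 0.13) fell too. Of 29 further induced genes 9 fell and 0 rose, Rtp4 (-0.96) and Isg20 (-0.84) among them. T and NK cell markers were 6.52 to 7.87 in water and 6.37 to 6.66 in sunitinib hearts, and 5 of 10 fell; the beta-actin 3′ minus 5′ signal was 0.458 to 0.528 and 0.279 to 0.381. With that signal as a covariate 0 of the 7 were called, and without any one of slots 02E, 02H, 01A, 01D or 01C the count was 2 or 3. The count was higher than 7 with array weights and without the 24 h slots 02D and 03A, as given at the end.

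In heart at 24 h 3 members rose after sunitinib and 0 fell (8.33%), where 25.4% of all genes were called. They were Cxcl11 (0.88 ± 0.32, adjusted p = 0.0361), Bst2 (0.78 ± 0.13, adjusted p = 2.23e-06) and Tapbp (0.35 ± 0.11, adjusted p = 0.0148). The beta-actin 3′ minus 5′ signal of the water hearts at 24 h was 0.710 to 0.805, above that of every other heart group apart from sorafenib after D5W at 6 h. With it as a covariate these 3 members were called, but that fit cannot settle what a shift of a whole group does. Quantile-normalized again, Bst2 alone was called. In the other 7 comparisons of sunitinib limma called 0 members, with 0.138% of all gene tests called and 25 of 258 member tests at an unadjusted p under 0.05. Of these 25, 19 were in liver at 1 h, where the member median was -0.41 log2 against -0.01 over all genes tested and no gene of any kind passed the threshold.

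After oxaliplatin, neither oral drug moved a member past the threshold. In 18 comparisons (2 drugs, 3 tissues, 3 times) limma called 0 members, 0.757% of all gene tests were called, and 47 of 660 member tests had an unadjusted p under 0.05. Of these 47, 16 in heart, 9 in kidney and 7 in liver were with sunitinib at 24 h, the group that holds slot 02D. The member median there was 0.33 log2 in heart, 0.22 in kidney and 0.20 in liver. Whether a drug's effect differed with and without oxaliplatin was tested as an interaction, the effect after oxaliplatin minus the effect after D5W. In heart with sorafenib at 6 h 3 members differed, all upward, where 17.1% of all genes did. Bst2 differed by 1.14 ± 0.18 (adjusted p = 1.69e-06), from -1.08 after D5W to 0.06 after oxaliplatin. Irf1 (0.63 ± 0.20) and Tapbp (0.50 ± 0.16) differed likewise.

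In liver with sorafenib at 24 h 12 members differed, all upward, where 38.2% of all genes did, 28.7% upward and 9.58% downward. The median over members was 0.77 log2 against 0.17 over all genes tested. Cxcl9 differed by 2.39 ± 0.53 (adjusted p = 0.000434), with -1.99 ± 0.39 after D5W and 0.40 ± 0.36 after oxaliplatin. Gbp2 (1.99 ± 0.53), Usp18 (1.51 ± 0.61), Rsad2 (1.36 ± 0.49), Psmb10 (1.01 ± 0.31), Psmb9 (0.995 ± 0.30), Dhx58, Lgals3bp, Psmb8, Nmi, Tap2 and Stat2 followed. Each such difference rests on the D5W arrays as much as on those after oxaliplatin: without slot 03A 7 were called, without sorafenib slot 04F 4 and without 04E 27, with the array that carries kidney markers 28, in a fit of the 4 groups alone 0 and with the livers quantile-normalized again 5 (the same 5 that fell on that scale).

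Sunitinib gave interactions in heart at 1 h and 24 h. At 1 h 5 members differed, all upward, where 6.56% of all genes did. Isg15 differed by 1.496 ± 0.45 (adjusted p = 0.0318), with -0.99 after D5W and 0.50 after oxaliplatin, followed by Psmb8 (1.15 ± 0.30), Irf9 (0.62 ± 0.19), Bst2 (0.58 ± 0.18) and B2m (0.28 ± 0.09). At 24 h 6 differed, 5 upward and Bst2 downward (-0.53 ± 0.18), where 14.4% of all genes did. Mx1 differed by 1.96 ± 0.70, Ifit3 by 1.33 ± 0.48, Rsad2 by 1.21 ± 0.33, Ifit2 by 0.98 ± 0.26 and Ifih1 by 0.77 ± 0.20. The group after oxaliplatin holds slot 02D: without it 2 were called, without 02A 18, without 02E, 02H, 01B or 01G 3, and in a fit of the 4 groups alone 0, with the beta-actin covariate 3. At 1 h, 0 were called with the beta-actin covariate and 18 in a fit of the 4 groups alone, and 11 without 01H, 1 without any one of 02E, 01C, 01D, 01E, 01F or 01G, 2 without 02D or 02H of that set and 3 without 02B or 02C. In the other 14 interactions limma called 0 members, with 0.381% of all gene tests called and 64 of 515 member tests at an unadjusted p under 0.05. Of these 64, 20 were with sorafenib in heart at 24 h and 20 with sunitinib in liver at 1 h. The member medians there were 0.52 and 0.58 log2, and no gene of any kind was called.

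Oxaliplatin was compared with D5W over both oral vehicles, and Rsad2 was lower at 24 h in heart and liver. In heart 4 of 36 members fell and 0 rose (11.1%), where 19.2% of all genes were called, 4.75% lower and 14.4% higher. Heart Rsad2 was 10.23, 10.43, 10.54 and 10.997 after D5W then water and 9.87, 10.13, 10.51 and 10.90 after D5W then F68. It was 9.27, 9.69, 10.08 and 10.14 after oxaliplatin then water and 9.22, 9.49, 9.59 and 9.63 after oxaliplatin then F68. All oxaliplatin then F68 hearts lay below all D5W hearts, and those given water overlapped with D5W. Rsad2 fell by 1.76-fold (-0.81 ± 0.16, adjusted p = 0.000121). Psmb10 (-0.33 ± 0.10), Irf8, a transcription factor of macrophages and dendritic cells (-0.22 ± 0.08), and B2m (-0.12 ± 0.04) fell less. With water alone Rsad2 differed by -0.75 ± 0.23 (adjusted p = 0.0116), and with F68 alone by -0.87 ± 0.23 (adjusted p = 0.0628). With water alone 2 members rose, Bst2 (0.78 ± 0.13) and Tapbp (0.30 ± 0.11), and Rsad2 fell, and with F68 alone 0 were called; the member median was 0.03 and -0.28. The beta-actin 3′ minus 5′ signal was 0.710 to 0.805 after D5W then water and 0.399 to 0.622 after oxaliplatin then water, and with it as a covariate Rsad2 alone was called.

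In liver at 24 h 2 of 37 members fell (5.41%), where 6.40% of all genes were called, 4.67% lower and 1.72% higher. Liver Rsad2 was 9.38, 9.46, 9.58 and 9.80 after D5W then water and 9.10, 9.26, 9.33 and 9.44 after D5W then F68. After oxaliplatin it was 8.10, 8.42, 8.90 and 8.92 with water and 7.68, 7.81, 7.82 and 7.94 with F68, so that all 8 oxaliplatin livers lay below all 8 D5W livers. It fell by 2.33-fold (-1.22 ± 0.24, adjusted p = 0.000456). With F68 alone the difference was -1.47 ± 0.33 (adjusted p = 0.00776), and with water alone -0.97 ± 0.33 (adjusted p = 0.141), where 0 members were called. Cxcl9 fell too, with a difference of -0.93 ± 0.26 (adjusted p = 0.0178) and was -0.05 with water alone and -1.81 ± 0.36 with F68 alone, whose D5W rats include slot 03A. Macrophage markers were 10.51 to 10.996 in D5W then F68 and 9.92 to 10.34 in oxaliplatin then F68 livers, 7 of 10 fell, and all 4 red cell markers fell in heart and in liver; their part was not tested.

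In kidney at 24 h 1 of 37 members fell, where 7.77% of all genes were called, 2.18% lower and 5.6% higher. This was Bst2 (-0.44 ± 0.13, adjusted p = 0.0256), and Rsad2 had -0.41 ± 0.16 (adjusted p = 0.0992); Bst2 was called with F68 alone and not with water alone (-0.21). The count was 0 without any one of slots 03A, 03C, 03H or 01H and 2 without 03D or 01D. In the other 6 comparisons, at 1 and 6 h, limma called 0 members, with 7.86% of all gene tests called and 17 of 220 member tests at an unadjusted p under 0.05. The heart count was 1 without slot 03A and 2 without 03C, 03F or 01B, and the liver count 1 without 03A or 01A, 4 without 03D and 5 without 03B.

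The effect of oxaliplatin on Rsad2 differed between 24 and 6 h. In heart 1 member differed, where 7.62% of all genes did, and it was Rsad2 (-0.92 ± 0.23, adjusted p = 0.00519); 2 differed without slot 03A or 05G and 0 with the beta-actin covariate. In liver 1 member differed, where 9.13% of all genes did, again Rsad2 (-1.32 ± 0.33, adjusted p = 0.00693). At 6 h the oxaliplatin difference of Rsad2 was 0.11 ± 0.16 in heart and 0.10 ± 0.24 in liver. In the other 4 comparisons between times limma called 0 members, with 5.52% of all gene tests called and 3 of 147 member tests at an unadjusted p under 0.05.

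**Figure D5:**
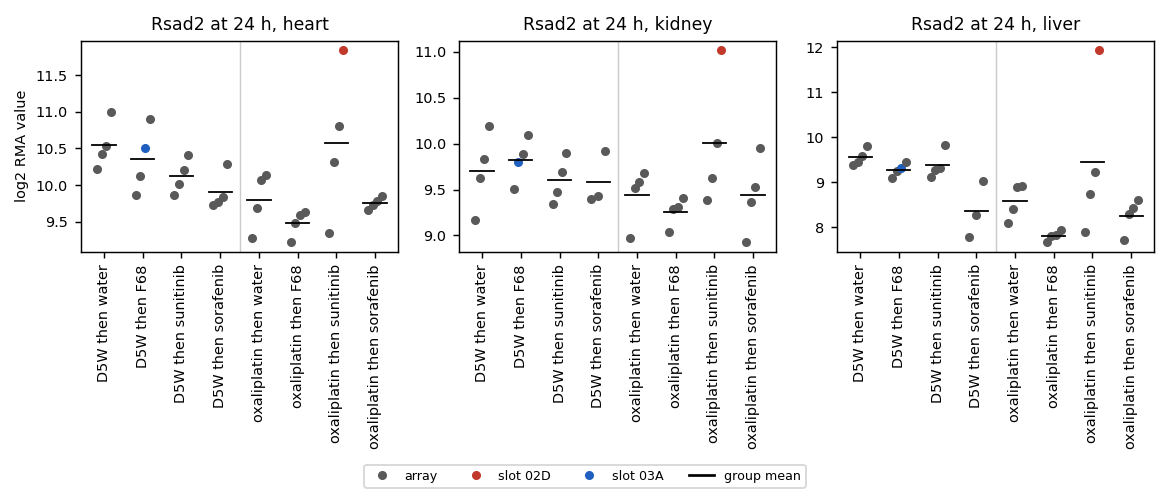
Rsad2 (log2 value, y axis) on each 24 h array by treatment group (x axis) in heart, kidney and liver; points are arrays and bars group means. In liver all 8 oxaliplatin arrays with a vehicle lay below all 8 D5W arrays with a vehicle.

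The 2 oral vehicles were compared after D5W, a comparison that cannot be told apart from the dosing day. In heart at 1 h 6 of 36 members were lower after F68 than after water and 0 higher, where 11.6% of all genes were called. Psmb8 was 8.95, 8.98, 8.996 and 9.13 after F68, below all the water hearts given above (-0.84 ± 0.21, adjusted p = 0.00627). Cxcl10 was 6.85, 6.88, 6.97 and 7.25 after water and 5.92, 5.98, 6.22 and 6.24 after F68, also without overlap (-0.90 ± 0.29, adjusted p = 0.0296). The water hearts at 1 h were thus above both the F68 and the sunitinib hearts for Psmb8, and they are the controls of both comparisons. Cxcl9 (-0.78 ± 0.26), Parp9, which acts in a complex with Dtx3l (-0.53 ± 0.17), Nmi (-0.50 ± 0.14) and Irf8 (-0.38 ± 0.11) were also lower. T and NK cell markers were 6.43 to 6.57 after F68, against the range given above for water, and 4 of 10 were lower. The beta-actin 3′ minus 5′ signal was 0.458 to 0.528 after water and 0.295 to 0.424 after F68, without overlap, and with it as a covariate Psmb8 and Irf8 were the 2 members called. The count was 12 without slot 03A of that set, 2 without 03B or 03D and 1 without 01C.

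In heart at 24 h the direction was the opposite one, with 10 members higher after F68 and 0 lower (27.8%), where 16.8% of all genes were called. Bst2 was 11.32, 11.33, 11.34 and 11.54 after water and 12.13, 12.39, 12.45 and 12.82 after F68, without overlap (1.06 ± 0.13, adjusted p = 6.72e-10). Ubd was 7.04, 7.14, 7.37 and 7.65 after water and 7.54, 8.01, 8.38 and 10.76 after F68, and the highest F68 array, slot 03A, was far above the others (1.37 ± 0.31, adjusted p = 0.000579). Cxcl9, Psmb9, Psmb8, Lgals3bp, Tapbp, Psmb10, Irf1 and Irf8 were higher by between 0.41 and 0.91. The beta-actin 3′ minus 5′ signal was 0.710 to 0.805 in these water hearts and 0.395 to 0.505 in the F68 hearts, and 0 of 10 macrophage markers changed. Without slot 03A 3 members were called, and in a fit of the 2 groups alone 2. In kidney at 6 h 2 members were higher, where 3.93% of all genes were called: Cxcl10, at 7.92, 8.02, 8.05 and 8.33 after water and 8.37, 8.56, 9.99 and 10.09 after F68 (1.17 ± 0.34, adjusted p = 0.0315), and Irf1 (0.58 ± 0.17, adjusted p = 0.0336). That count was 0 without any one of slots 05A, 05C, 05D or 07B, 1 without 05B, 07A or 07D and 4 without 07C. In the other 6 comparisons limma called 0 members, with 0.780% of all gene tests called and 29 of 221 member tests at an unadjusted p under 0.05.

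Over time in vehicle rats, few members were called. In heart from 6 to 24 h, 4 members rose and 2 fell, where 51.8% of all genes were called; with the beta-actin covariate 2 were called. Rsad2 (0.46 ± 0.16, but -0.01 with the beta-actin covariate), Gbp2 (0.39 ± 0.16), Psmb10 (0.29 ± 0.10) and Ifih1 (0.29 ± 0.10) rose, and Bst2 (-0.42 ± 0.09, adjusted p = 0.000101) and Oas1a (-0.40 ± 0.17) fell. In liver from 1 to 6 h, Cxcl10 (-1.37 ± 0.30, adjusted p = 0.00120) and Irf1 (-0.68 ± 0.19, adjusted p = 0.0120) fell, 2 members where 11.3% of all genes were called. The 24 h arrays carry another array-code prefix than the earlier ones, so time and array set cannot be told apart in the steps to 24 h. Without slot 07D 3 members were called in heart and 1 in liver. In the other 4 steps limma called 0 members, with 13.0% of all gene tests called and 7 of 147 member tests at an unadjusted p under 0.05.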

How the data were processed

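RNA from heart, kidney and liver was hybridised to Affymetrix rat genome arrays. The authors deposited log2 expression values per probe set, made by RMA (background correction, quantile normalization and median polish; version not stated); whether tissues were normalized together is not given in the sources used here. Of 31099 probe sets, 57 were array controls, 20826 had 1 gene symbol, 436 several and 9780 none; 20758 were found in RefSeq through their Entrez IDs, and 0 symbols were updated. Genes with several probe sets were represented by the one brightest in the tissue, and a gene entered the tests of a tissue where 4 or more of its arrays exceeded 6 log2.

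Groups came from the labels. For each tissue 1 linear model with a mean for each of 24 groups was fitted with limma 3.58.1 in R 4.3.3, and p-values were adjusted over all genes tested (Benjamini-Hochberg, threshold 0.05). Members past it were named, largest difference first, up to 12, and single arrays given for at most 6. The members, the lists of pathway genes and the markers of macrophages, T and NK cells and red cells were chosen with earlier results of these data known. Called means past the threshold, and adjusted p-values are limma's. Shares of all genes called cover both directions unless a direction is named. Arrays of a group are separate rats. The p-values rest on each gene's spread between rats within groups, pooled over all 24 groups of the tissue and drawn by limma toward that of other genes. They do not measure the spread of the compared groups alone. Standard errors rest on the number of arrays and on the spread of the gene.

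Alternatives were a second quantile normalization, no filter, the mean over a gene's probe sets, all arrays as labelled, array weights, the beta-actin covariate, only the groups compared, 1 oral vehicle alone and each array left out. The covariate was fitted beside the group means, so its slope rests on differences within groups. On simulated data for sorafenib against F68 at 24 h, the fit recovered 92 of 100 genes changed by 0.5 log2 in heart (11316 genes). Of those changed by 1 log2 there it recovered 99 of 100. The numbers were 80 and 98 in kidney (12309) and 75 and 96 in liver (11618). The changed genes were drawn from all genes tested, each with its own spread. Members had a wider spread (median SD 0.280 against 0.115 over all genes in heart, 0.295 against 0.140 in liver). Recovery was not simulated for members, so these shares do not apply to the counts of 0 members.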

Additional observations from a re-analysis of the deposited data

Results flagged for a closer look

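Dixon's test was run on 56 sets of 4 arrays, each set being 1 gene named above in 1 group. In 6 sets 1 array lay far from the other 3. The same groups recur among the sets, and genes and groups were picked after their values were seen. No chance rate can therefore be set beside this count. In kidney at 24 h after oxaliplatin then sunitinib, Mx1 was 10.542 on slot 02D and at most 8.0504 on the others. In liver at 24 h after D5W then F68, Ubd was 14.203 on slot 03A and at most 12.191 on the others. In heart at 24 h after D5W then water, Bst2 was 11.543 on slot 01D and at most 11.338 on the others, a narrow range throughout. In heart at 24 h after D5W then sorafenib, Psmb9 was 10.003 on slot 04E and at most 9.1958 on the others. At the low end, heart Isg15 at 1 h was 9.5353 on slot 01B after D5W then water, where the next array had 10.018, and 8.6426 on slot 02H after D5W then sunitinib, where the next had 8.9911.

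Tests of the difference between 2 effects called members in 6 comparisons. Sunitinib effects with and without oxaliplatin differed for 5 members in heart at 1 h and 6 in heart at 24 h, and sorafenib effects for 3 in heart at 6 h and 12 in liver at 24 h. The oxaliplatin effect differed between 24 and 6 h for 1 member in heart and 1 in liver, which was Rsad2 in both.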

How the results depend on the processing

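The counts of members called moved with several choices, and the cause was not tested. Most of the differences named for single members lost their direction or call under at least 1 alternative run for them. Only 19 kept both under every alternative other than leaving out 1 array, and 16 also with any 1 array left out. These 16 include Bst2 in 5 comparisons in heart, and Cxcl9, Nmi and Tap2 after sorafenib in liver at 24 h. The 5 Bst2 results are not separate, since each rests on D5W then sorafenib at 6 h or D5W then water at 24 h. Those hearts had the highest mean beta-actin 3′ minus 5′ signal of the heart groups (0.655 and 0.755), and its part was not settled. Rsad2 after oxaliplatin at 24 h lost its call in heart with F68 alone and in liver with water alone. One difference changed sign: Rsad2 from 6 to 24 h in vehicle hearts was -0.0095 with the beta-actin covariate (adjusted p 0.981). No paired analysis was possible because the labels give no replicate numbers that would pair arrays of different groups; slot codes tie tissues of 1 group only. In heart at 1 h, leaving out the 24 h arrays of the slots singled out above raised the counts for F68 against water, sunitinib and its interaction. Those counts are given below. These comparisons hold no 24 h array, so their differences stayed the same. Their p-values use the spread pooled over all 24 groups, which includes those slots. What else limits the precision was not tested.

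With all arrays as labelled, sorafenib in liver at 24 h called 31 members, its interaction 28, the other sorafenib comparisons 2, F68 against water in kidney at 6 h 0, and oxaliplatin at 24 h 0 in kidney and 1 in liver. With array weights, sorafenib in liver at 24 h called 11 and the other sorafenib comparisons 1, sunitinib in heart 11 at 1 h and 6 at 24 h, its interaction at 1 h 16, the other sunitinib comparisons 1, F68 against water in kidney at 6 h 4 and in the others 2, oxaliplatin in kidney at 24 h 3 and in the others at 1 and 6 h 4, the oxaliplatin effect between times in liver 2, the step from 1 to 6 h in liver 4 and the other steps 2. With the beta-actin covariate, heart counts were 2 for F68 against water at 1 h, 1 for oxaliplatin at 24 h, 0 for its difference between times, 17 and 2 for sorafenib at 6 and 24 h, 0 for sunitinib at 1 h, 0 and 3 for its interaction at 1 and 24 h, and 2 for vehicle rats from 6 to 24 h. With the mean over probe sets, the drugs after oxaliplatin called 1, oxaliplatin in kidney at 24 h 2 and the other steps over time 1. With no filter, the sunitinib interaction in heart at 24 h called 3. Quantile-normalized again, sorafenib in liver at 24 h called 6, its interaction 5, sunitinib in heart at 24 h 1 and oxaliplatin at 1 and 6 h 2.

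With only the groups compared in the fit, F68 against water called 2 in heart at 1 h, 2 in heart at 24 h and 0 in kidney at 6 h, oxaliplatin at 24 h 2 in heart, 2 in kidney and 1 in liver and at the earlier times 5, sorafenib 0 in heart at 24 h, 0 in liver at 1 h and 7 in liver at 24 h, its interaction 6 in heart at 6 h and 0 in liver at 24 h, sunitinib in heart at 24 h 6, its interaction 18 at 1 h and 0 at 24 h, the step from 1 to 6 h in liver 0 and the other steps 3. With water alone, oxaliplatin called 0 in kidney and 0 in liver at 24 h and 2 earlier, and with F68 alone 0 in heart at 24 h and 1 earlier. Without the 24 h arrays of slots 02D and 03A, a choice made after seeing the data, F68 against water in heart called 19 at 1 h and 3 at 24 h, oxaliplatin at 24 h 2 in heart, 0 in kidney and 1 in liver and earlier 3, its effect between times in heart 2, sorafenib in heart at 24 h 2 and the other sorafenib comparisons 2, sunitinib in heart at 1 h 18, its interaction 17 at 1 h and 2 at 24 h, and the other steps over time 3.

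Leaving out 1 array at a time, the counts ran from 1 to 12 for F68 against water in heart at 1 h, 3 to 11 in heart at 24 h, 0 to 4 in kidney at 6 h and 0 to 2 in the others, from 1 to 6 for oxaliplatin at 24 h in heart, 0 to 2 in kidney, 1 to 5 in liver and 0 to 2 earlier, and from 1 to 2 in heart and 1 to 1 in liver for its effect between times. They ran from 8 to 12 for sorafenib in heart at 6 h, 1 to 14 in heart at 24 h, 0 to 1 in liver at 1 h, 10 to 30 in liver at 24 h and 0 to 1 in the others, and from 2 to 4 for its interaction in heart at 6 h and 4 to 27 in liver at 24 h. They ran from 2 to 6 for sunitinib in heart at 1 h, 2 to 3 at 24 h and 0 to 0 in the others, from 1 to 11 and 2 to 18 for its interaction at 1 and 24 h, 0 to 1 for the other interactions, and 0 to 8 for the drugs after oxaliplatin (8 without heart slot 02A). For vehicle rats they ran from 3 to 8 in heart from 6 to 24 h, 1 to 3 in liver from 1 to 6 h and 0 to 2 in the other steps.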
